A study of Canis lupus familiaris with 8 samples.

Results

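Interferon-induced antiviral genes were followed across a canine mammary carcinoma line, its doxorubicin-resistant subline and the stem-like cells sorted from each. The group held 7 genes, OAS1, OAS2, OAS3, OASL, MX1, CXCL10 and IFGGC1, and every gene probe whose accession belongs to one of them was taken, which gave 12 of the 43603 gene probes on the array. Symbols could be assigned to 2353 probes for 1458 genes, so most probes on the array are unnamed here. OAS1, OAS2, OAS3, MX1 and CXCL10 had 2 probes each, and OASL and IFGGC1 had 1 each.

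The RNA was hybridised to 8 one-colour arrays, 2 for each of 4 groups. Star CSC was the fraction of CMT-Star cells sorted as cancer stem cells (CSC), that is, cells positive for CD44 and aldehyde dehydrogenase (ALDH) activity with low or absent CD24, and Star parent was CMT-Star unsorted. CMT-Star is a subline of CMT-Stylo that had been grown in rising doxorubicin until it tolerated 100 nM. Stylo CSC was the same sorted fraction of CMT-Stylo, the line that had not been made resistant, and Stylo parent was CMT-Stylo unsorted. All 4 groups were canine, were grown in the same serum-containing medium and carry the label "non treated", and CMT-Star is 1 subline of 1 line. Nothing in the labels says that the 2 arrays of a group came from separate cultures, so each p-value measures only the spread between arrays. Both Star groups share one slide and scan and both Stylo groups share another, so line and slide cannot be told apart, while each sorted fraction was compared with its parent within a slide.

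Interferons are secreted proteins that a cell makes when it senses viral nucleic acid. They bind receptors on the same or neighbouring cells, and JAK kinases and STAT factors then switch on a large set of interferon-stimulated genes. OAS1, OAS2 and OAS3 encode oligoadenylate synthetases, which bind double-stranded RNA and make short 2'-5' adenylate chains that act as an antiviral signal inside the cell. OASL is their relative, which in humans lacks that activity and assists the RNA sensor RIG-I. MX1 encodes a dynamin-like GTPase that blocks virus replication, and CXCL10 a secreted chemokine that draws T cells and natural killer cells through the receptor CXCR3. IFGGC1 is a canine gene of the immunity-related GTPases, which in mice act on the vacuoles of intracellular pathogens. In the RefSeq gene order, OAS1, OAS3 and OAS2 lie next to each other, MX1 lies next to MX2, CXCL10 next to CXCL11, and IFGGC1 next to IFGGB2.

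The values below are relative signals, the background-corrected spot signal divided by the 75th percentile of that array, so a value of 1 equals the 75th percentile. Differences are on the log2 scale of these values with their standard error, and n = 2 arrays per group throughout. A gene was called higher or lower when limma gave a Benjamini-Hochberg adjusted p under 0.05 over all 26821 tested probes and the change was at least 2-fold. Where the scanner software marked neither array of a group as well above background for a probe, that group yields a limit instead of a level. The fold is then given as "at least", from the mean of the bright group over the mean of the dim one, with each dim array set to the higher of its own signal and the lowest signal called well above background. A p-value printed beside such a bound belongs to the fitted difference, which uses the dim signals as read, and does not test the bound. The Stylo parent arrays stand apart from the other 6. Their 75th percentiles were 88.6 and 69.5 signal units, against 297.4 to 538.2 units on the others, and the share of spots well above background was 47.4% and 46.7%, against 55.5% to 60.7%. Every comparison with Stylo parent rests on those 2 dimmer arrays. In bulk RNA, fewer cells expressing a gene and less RNA per cell cannot be told apart.

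In Star CSC all 7 genes were well above background on both arrays. In Star parent and in Stylo CSC the same 5 genes were, all but OASL and IFGGC1, and in Stylo parent OAS1 and OAS2 alone. Over all 43603 gene probes, 56.7% were well above background on both Star CSC arrays, 57.0% on both Star parent arrays, 54.4% on both Stylo CSC arrays and 44.9% on both Stylo parent arrays.

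**Figure D1:**
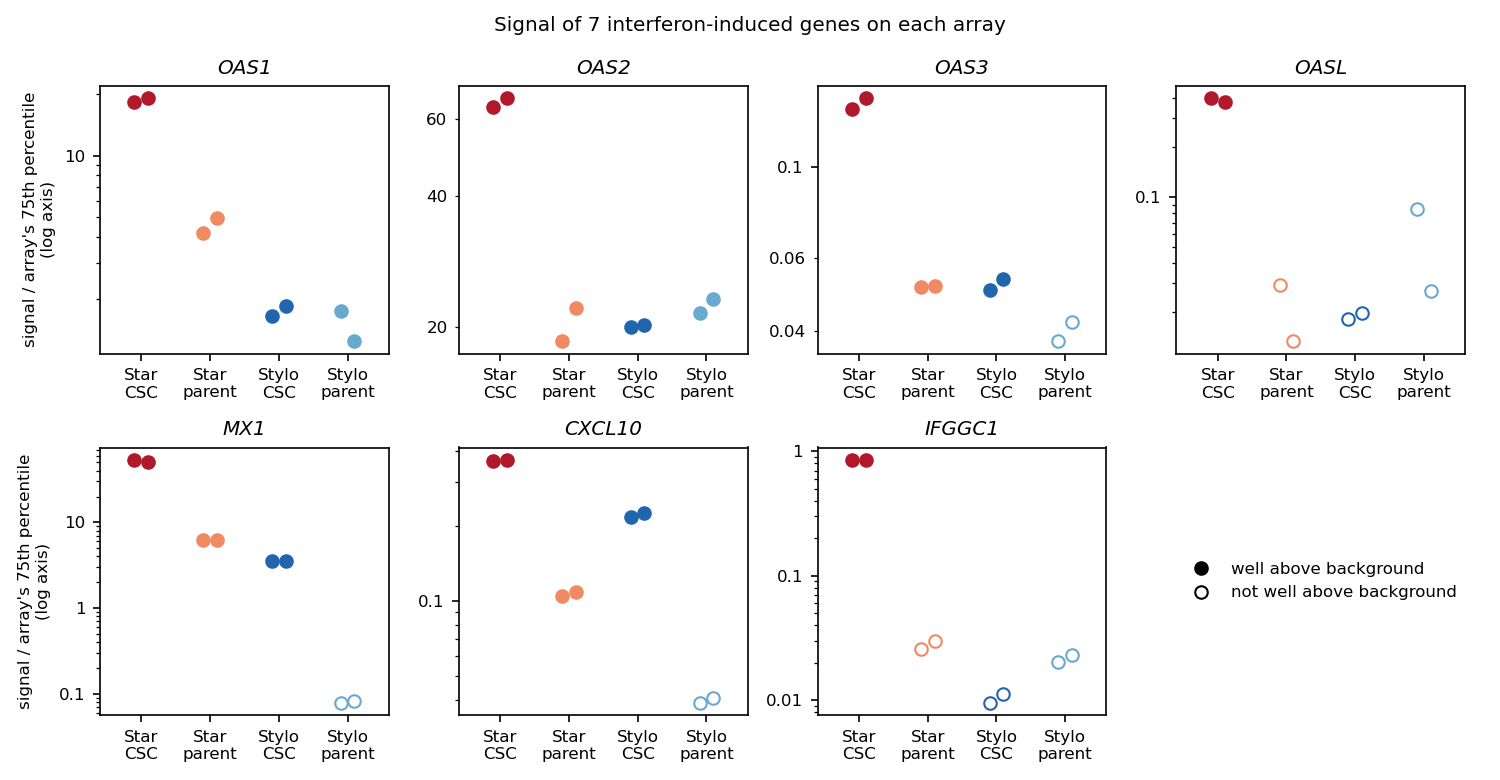
Relative signal of the 7 genes on each array, by group, with 1 point per array and the probe with the highest mean level for each gene; the vertical axis is logarithmic and differs between panels, and open points are not well above background. Both Star CSC points lie above every other point in each of the 7 panels. For OASL and IFGGC1 this follows from how they entered the test, through Star CSC alone. The share of all probes with such a gap was not counted. CXCL10 is the one gene with both Stylo CSC points above both Star parent points.

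OAS1 had relative signals of 18.2 and 19.1 in Star CSC, 4.17 and 4.95 in Star parent, 1.65 and 1.83 in Stylo CSC, and 1.75 and 1.24 in Stylo parent. Star CSC stood highest and Star parent next, neither overlapping any other group, while the 2 Stylo groups overlapped. The share of all probes without such overlap was not counted, here or for the genes below. OAS2 had 63.9 and 67.1 in Star CSC, 18.6 and 22.1 in Star parent, 20.0 and 20.3 in Stylo CSC, and 21.6 and 23.2 in Stylo parent. Only Star CSC was set apart, and the other 3 groups lay within a narrow range of each other. OAS3 gave a dim probe with 0.139 and 0.147 in Star CSC, 0.0512 and 0.0513 in Star parent, and 0.0503 and 0.0535 in Stylo CSC. It was not well above background on the Stylo parent arrays, at 0.0377 and 0.0420. This probe is printed 5 times on the array, and 5 of 5 spots were well above background on each Star CSC array, 4 of 5 on each Star parent array, and 3 and 4 of 5 on the Stylo CSC arrays. Before scaling, its signal was 74.6 and 68.4 units in Star CSC, and 19.1 and 17.0 units in Star parent.

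OASL was well above background in Star CSC alone, at 0.397 and 0.378. Its signals elsewhere were 0.0292 and 0.0134 in Star parent, 0.0182 and 0.0198 in Stylo CSC, and 0.0845 and 0.0268 in Stylo parent, none of them well above background. IFGGC1 showed the same detection pattern, with 0.856 and 0.854 in Star CSC, 0.0257 and 0.0299 in Star parent, 0.0095 and 0.0111 in Stylo CSC, and 0.0203 and 0.0231 in Stylo parent. For both genes the 6 arrays outside Star CSC therefore give upper limits and no order among themselves.

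MX1 had 53.9 and 50.4 in Star CSC, 6.26 and 6.30 in Star parent, and 3.55 and 3.56 in Stylo CSC. In Stylo parent it stood at 0.0780 and 0.0831, neither array being well above background. No groups with a measured level overlapped for MX1. CXCL10 had 0.363 and 0.368 in Star CSC, 0.105 and 0.108 in Star parent, and 0.217 and 0.225 in Stylo CSC, with 0.0388 and 0.0405 in Stylo parent, again not well above background. CXCL10 thus had another order, with Stylo CSC above Star parent and no overlap between groups with a measured level.

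The comparison of Star CSC with Star parent addressed how the sorted cells of the resistant subline differ from the unsorted ones. The 5 genes measured on all 4 arrays were all higher in Star CSC, by 2.79-fold for OAS3, 3.23-fold for OAS2, 3.44-fold for CXCL10, 4.11-fold for OAS1 and 8.30-fold for MX1. Of all probes tested, 3.21% were called higher in this comparison and 6.51% lower (9.72% in either direction). OASL and IFGGC1 entered the test only through their signal in Star CSC and so had to differ. They were at least 12.8-fold and at least 28.5-fold higher there. The median log2 difference of the 5 measured genes was 1.78, with a range of 1.48 to 3.05, and the median over all tested probes was -0.10.

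OAS1 was 2.04 ± 0.19 higher (95% interval 1.57 to 2.50, limma with Benjamini-Hochberg adjusted p = 0.00184). OAS2 was 1.69 ± 0.12 higher (1.40 to 1.98, limma adjusted p = 0.000865), and OAS3 was 1.48 ± 0.10 higher (1.23 to 1.73, limma adjusted p = 0.000826). The intervals of OAS1 and OAS3 overlap, so no order among the 3 synthetases was resolved. MX1 was 3.05 ± 0.09 higher (2.83 to 3.28, limma adjusted p = 0.000127) and CXCL10 1.78 ± 0.09 higher (1.57 to 2.00, limma adjusted p = 0.000364). MX1's interval lies above those of the synthetases and of CXCL10. Ranked by difference among the 26821 tested probes, MX1 was number 101 from the top, OAS1 308, CXCL10 405, OAS2 446 and OAS3 574. Fitting the 4 Star arrays alone left the Stylo slide out of the fit, though not out of the choice of tested probes. That fit again called these 5 measured genes, with limma adjusted p-values between 0.00813 for MX1 and 0.0132 for OAS2. With spike-in scaling 69.0% of all probes were called higher and 0.854% lower, a shift of the whole array by a median of 1.29, and the 5 measured genes were again called. The normexp setting corrected the background of the median signals with an offset of 50 units and then applied quantile normalization. It took OAS3 to 0.42 and CXCL10 to 0.83, both below the 2-fold limit.

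**Figure D2:**
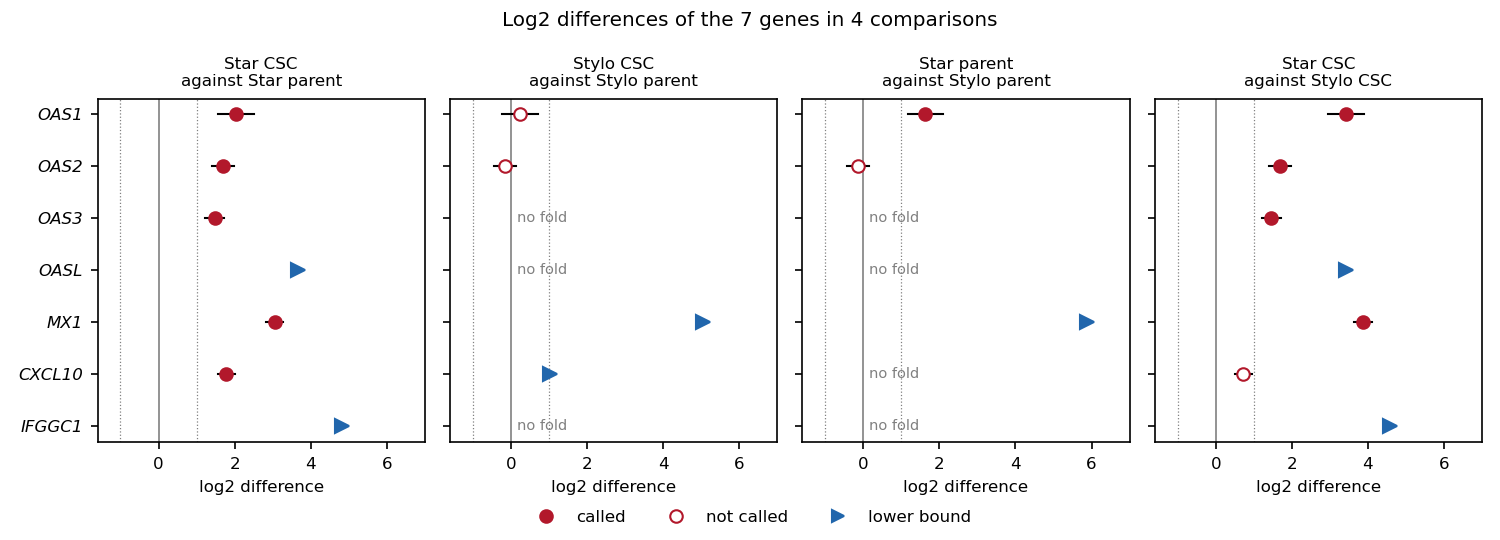
Log2 differences of the 7 genes in the 4 pairwise comparisons, first minus second group as titled; bars are 95% intervals, triangles are lower bounds where one group was not well above background, filled points were called, and dotted lines mark a 2-fold change. In Star CSC against Star parent the 5 measured genes lie to the right of the 2-fold line, beside 3.21% of all tested probes called higher. The bounds of OASL and IFGGC1, which had to differ, lie there too. In Stylo CSC against Stylo parent OAS1 and OAS2 sit near 0. The bounds of MX1 and CXCL10 lie past 2-fold there, beside 21.9% of all tested probes called higher.

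The matching comparison in the line that had not been made resistant, Stylo CSC with Stylo parent, gave another picture. OAS1 differed by 0.24 ± 0.19 (-0.22 to 0.70, limma adjusted p = 0.288) and OAS2 by -0.15 ± 0.12 (-0.44 to 0.14, limma adjusted p = 0.280), and neither was called. Without Stylo parent replicate 2 the OAS1 difference was -0.0094. With the array's 75th percentile as the scale, the intervals reach no higher than 0.70 for OAS1 and 0.14 for OAS2. OAS2's sign was not settled, since 7 alternative settings gave it a positive value. MX1 was at least 33.1-fold higher in Stylo CSC (limma adjusted p = 1.2e-05) and CXCL10 at least 2.06-fold higher (limma adjusted p = 1.2e-05). So 2 of the 4 genes with a measured difference or a bound were called higher, beside 21.9% of all tested probes called higher and 32.1% lower (54.0% in either direction). OAS3 was above background in Stylo CSC but too close to the detection limit for a bound, and OASL and IFGGC1 were below background on all 4 Stylo arrays. The median over all tested probes was -0.28. With spike-in scaling OAS1 and OAS2 would be called at 2.28 and 1.89, in a setting where 67.6% of all probes were called higher and 1.54% lower. With normexp the fitted CXCL10 difference was 0.91, under the 2-fold limit, and its call ended. The second CXCL10 probe gave a bound of at least 1.32-fold.

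Whether sorting had a different effect in the 2 lines was tested as the difference between both sorting contrasts, for the genes measured in all 4 groups. OAS1's sorting effect was greater in Star by 1.80 ± 0.27 (1.14 to 2.45, limma adjusted p = 0.0017), and OAS2's by 1.85 ± 0.17 (1.43 to 2.26, limma adjusted p = 0.000239). This test called 28.2% of all probes in the same direction and 23.9% in the other (52.1% in all), so a call in it is common on this array set. With spike-in scaling the OAS1 value was 1.14 (limma adjusted p = 0.117) and the OAS2 value 1.19 (limma adjusted p = 0.0787), which ends both calls. With no scaling between arrays they were 0.35 and 0.40. For MX1 the fitted value was -2.41 with one probe and 0.94 with the other, and Stylo parent was below background with both, so no direction is given. OASL, IFGGC1, OAS3 and CXCL10 lacked a measured level in Stylo parent as well.

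Star parent was set against Stylo parent to ask what separates the resistant subline from the line it came from. MX1 was at least 58.5-fold higher in Star parent (limma adjusted p = 3.38e-06) and OAS1 was 1.63 ± 0.19 higher (1.16 to 2.09, limma adjusted p = 0.000375). OAS2 differed by -0.14 ± 0.12 (-0.43 to 0.15, limma adjusted p = 0.305). These are 2 calls among 3 genes with a measured difference or a bound, beside 24.6% of all probes called higher and 32.0% lower (56.6% in either direction). CXCL10 and OAS3 were well above background in Star parent but too dim for a bound against Stylo parent, and OASL and IFGGC1 were below background in both. The OAS1 call rests on its brighter probe, as described with the paired probes.

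Star CSC was also set against Stylo CSC, a comparison of the 2 sorted fractions that does not use the dim Stylo parent arrays but does cross slides. OAS1 was 3.42 ± 0.19 higher in Star CSC, OAS2 1.70 ± 0.12, OAS3 1.46 ± 0.10 and MX1 3.87 ± 0.09, with limma adjusted p-values of at most 0.000159. CXCL10 differed by 0.73 ± 0.09 (0.51 to 0.94, limma adjusted p = 0.00105), which is under the 2-fold limit, and it would be called with spike-in scaling (1.25). OASL and IFGGC1 entered the test only through Star CSC and so had to differ here too, by at least 10.8-fold and at least 23.8-fold. Of the 5 genes measured in both sorted fractions, 4 were called higher, beside 12.6% of all probes called higher and 16.9% lower (29.4% in either direction). The 4 comparisons share arrays with one another, so their values for a gene are not independent.

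OAS1, OAS2, OAS3, MX1 and CXCL10 had a second probe, which repeats the measurement on the same RNA. For OAS1 the second probe read 0.450 and 0.459 in Star CSC, 0.112 and 0.115 in Star parent, and 0.0758 and 0.0659 in Stylo CSC, with 0.0596 and 0.0870 in Stylo parent, not well above background. Its difference between Star CSC and Star parent, 2.00 ± 0.19, lay within the error of the first probe's 2.04. Between Star parent and Stylo parent it gave only a bound of at least 1.06-fold and no call. The second OAS2 probe read 65.0 and 32.0 in Star CSC, 23.5 and 16.1 in Star parent, 21.8 and 20.7 in Stylo CSC, and 23.9 and 26.3 in Stylo parent. Its Star CSC arrays differed from each other far more than those of the first probe, and its difference from Star parent was 1.23 ± 0.35, still called (limma adjusted p = 0.0457). The second OAS3 probe gave 1.66 ± 0.23 for the same comparison, called as well.

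The second MX1 probe read 13.5 and 16.5 in Star CSC, 1.11 and 1.27 in Star parent, 0.352 and 0.418 in Stylo CSC, and 0.0527 and 0.0652 in Stylo parent, the last not well above background. It was 3.65 ± 0.17 higher in Star CSC than in Star parent. Its bounds were smaller than those of the first probe, at least 3.57-fold for Stylo CSC over Stylo parent and at least 11.1-fold for Star parent over Stylo parent. The group order was the same with both probes. The second CXCL10 probe read 0.109 and 0.231 in Star CSC, 0.0663 and 0.0751 in Star parent, 0.136 and 0.148 in Stylo CSC, and 0.0247 and 0.0546 in Stylo parent, the last not well above background. Its Star CSC arrays enclosed the Stylo CSC values, and its difference from Star parent, 1.17 ± 0.47 (0.01 to 2.32, limma adjusted p = 0.113), was not called. CXCL10 is therefore the one gene of the 5 whose rise in Star CSC over Star parent was called with 1 of its 2 probes. For Stylo CSC over Stylo parent the second CXCL10 probe was called too. Its bound there was at least 1.32-fold, against at least 2.06-fold with the first probe.

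**Figure D3:**
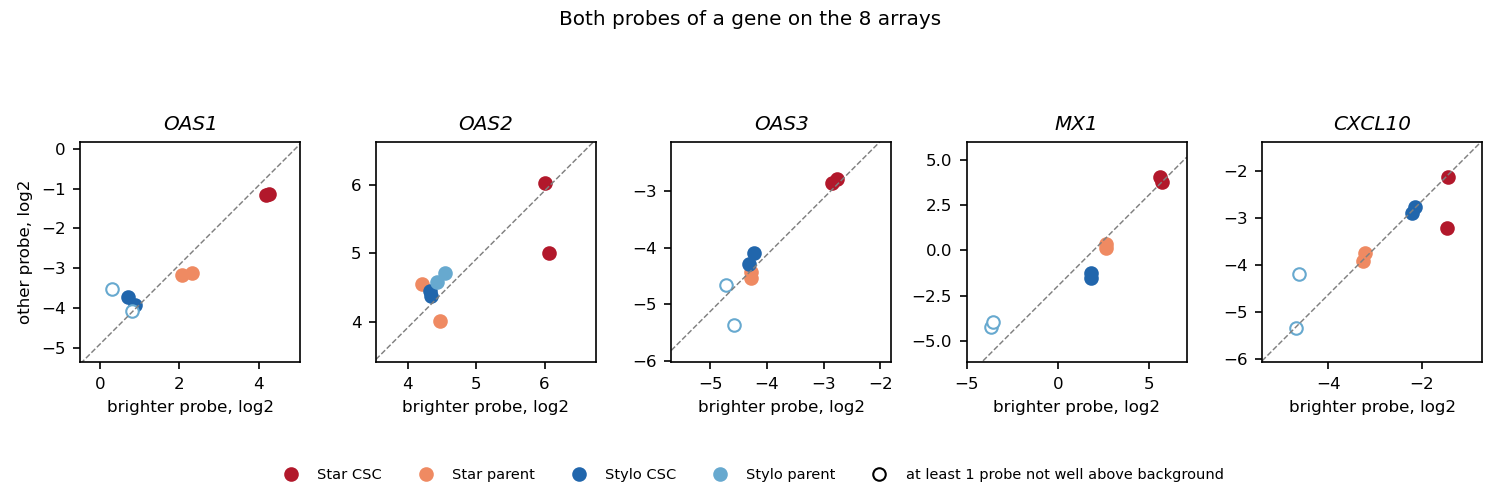
Log2 relative level of the second probe (vertical) against that of the brighter probe (horizontal) for the 5 genes with 2 probes, with 1 point per array, coloured by group; open points have at least 1 probe not well above background, and the dashed line has slope 1 through the means. OAS1, OAS3 and MX1 keep both Star CSC arrays together at the upper right, while OAS2 and CXCL10 each have 1 Star CSC array low on the second probe.

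The rest of the interferon pathway was drawn from lists of 125 genes, of which 23 had a named probe and 16 were tested. None of the listed interferon receptors had a named probe here. Of the listed JAK, STAT and interferon regulatory factors JAK1 was the one with a named probe. Among the interferons themselves, the probes for IFNB1, IFNG and IFNK were not well above background on both arrays of any group. IFNA7, an interferon alpha, read 1.02 and 1.05 in Star CSC, against 2.18 and 2.67 in Star parent, and was lower by -1.22 ± 0.18 (limma adjusted p = 0.00611), the opposite direction to the 7 genes. The call ended with median scaling (-0.99), with normexp (-0.94) and with no scaling (-0.71), all under the 2-fold limit, and the direction turned with spike-in scaling (0.17).

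In Star CSC against Star parent, 15 of the 16 tested pathway genes were measured in both groups. Of these 3 were called higher, beside 3.21% of all tested probes, and 2 lower, beside 6.51%, while 10 were not called, and the median of the 15 log2 differences was 0.70. CCL5, a chemokine for T cells, read 2.77 and 1.84 in Star CSC, against 0.339 and 0.371 in Star parent, and was 2.67 ± 0.24 higher (limma adjusted p = 0.00178). PSMB8 and PSMB9, catalytic subunits of the immunoproteasome, were 2.53 ± 0.39 and 2.51 ± 0.11 higher. PSMB9 read 26.5 and 27.1 in Star CSC, against 4.85 and 4.53 in Star parent. LOC606863, whose synonyms in the gene table include IRGM and which belongs to the same GTPase family as IFGGC1, was at 0.385 and 0.394 in Star CSC and below background on the 6 other arrays. It entered the test only through Star CSC and so had to differ, by at least 13.0-fold from Star parent.

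The peptide transporters TAP1 and TAP2, which carry the products of the immunoproteasome, differed by 0.70 ± 0.09 and 0.72 ± 0.15, under the 2-fold limit. EIF2AK2, the RNA-activated kinase PKR, differed by 0.78 ± 0.27 (limma adjusted p = 0.0781). CCL2, a monocyte chemokine, was lower by -1.02 ± 0.11, just past the 2-fold limit. That call ended when Star CSC replicate 1 (-0.96) or Star parent replicate 2 (-0.93) was left out. It also ended with median scaling (-0.79), scaling to the probes detected on all arrays (-0.998), cyclic loess (-0.97) and no scaling (-0.51), and it reversed with spike-in scaling (0.37). CCL7, CCL8, JAK1, MAVS, TLR2, TNFSF10 and SOCS3 were not called, with differences of -0.59 to 0.87.

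In Stylo CSC against Stylo parent, 10 of 15 pathway genes with a measured difference or a bound were called higher, beside 21.9% of all tested probes, and 1 lower, beside 32.1%, with 4 not called. CCL2 and CCL8, both monocyte chemokines, were 2.96 ± 0.11 and 2.78 ± 0.13 higher, and TAP1 and TAP2 were 2.27 ± 0.09 and 2.17 ± 0.15 higher. CCL5 was at least 9.54-fold higher, TLR2, a sensor of bacterial lipoproteins, at least 3.32-fold, and CCL7 at least 2.28-fold. JAK1, EIF2AK2 and PSMB9 were 1.44 ± 0.16, 1.07 ± 0.27 and 1.07 ± 0.11 higher. EIF2AK2 was well above background on 1 of the 2 Stylo parent arrays, and its call ended when replicate 2 of Stylo CSC (0.98) or replicate 1 of Stylo parent (0.64) was left out. The PSMB9 call ended without Stylo parent replicate 1 (0.99). TLR2's call rests on 1 of its 2 probes, and JAK1's was made with 4 of its 5. SOCS3, an inhibitor of JAK-STAT signalling, was lower by -3.02 ± 0.26, with 0.115 and 0.0727 in Stylo CSC, against 0.638 and 0.864 in Stylo parent. LOC606863 was below background in both Stylo groups, as OASL and IFGGC1 were.

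**Figure D4:**
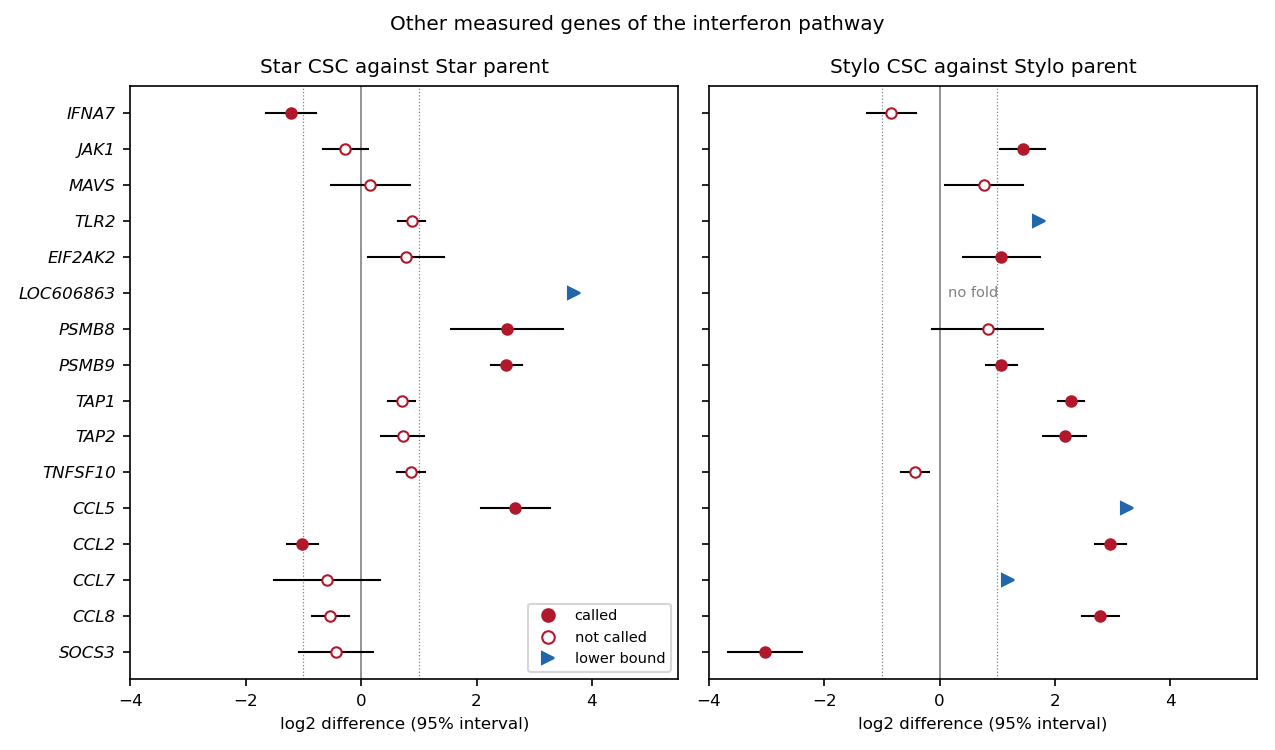
Log2 differences of the 16 tested pathway genes outside the 7 members in the 2 sorting comparisons; bars are 95% intervals, triangles lower bounds, filled points were called, and dotted lines mark 2-fold. PSMB8, PSMB9, CCL5 and LOC606863 lie past 2-fold upward in the Star sort, and PSMB9 and CCL5 do so in the Stylo sort as well. TAP1, TAP2, CCL2, CCL8, JAK1, EIF2AK2, TLR2 and CCL7 lie past 2-fold upward in the Stylo sort and not in the Star sort.

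Between the lines, 7 of 15 pathway genes with a measured difference or a bound were called higher in Star parent than in Stylo parent, beside 24.6% of all tested probes, 1 was called lower, beside 32.0%, and 7 were not called. TAP1, TAP2, EIF2AK2 and JAK1 were 2.74 ± 0.09, 2.59 ± 0.15, 1.63 ± 0.27 and 1.54 ± 0.16 higher, and SOCS3 was lower by -2.95 ± 0.26. CCL5 and TLR2, both below background in Stylo parent, were at least 3.31-fold and at least 1.43-fold higher. CCL7 was at least 1.87-fold higher, a call that ended without either Star parent array or Stylo parent replicate 1 (fitted differences of 0.81 to 1.48). In Star CSC against Stylo CSC, 6 of the 15 measured in both were called higher, beside 12.6% of all tested probes, and 2 lower, beside 16.9%. PSMB9, EIF2AK2, TAP1, TAP2 and CCL5 were 1.62 ± 0.11, 1.34 ± 0.27, 1.17 ± 0.09, 1.14 ± 0.15 and 1.14 ± 0.24 higher, of which the CCL5 call ended without Star CSC replicate 1 (0.85) or Stylo CSC replicate 1 (1.08), and LOC606863, which had to differ here too, was at least 10.9-fold higher. PSMB8 was 1.33 ± 0.39 higher (limma adjusted p = 0.0295), a call that ended on leaving out any 1 array of Star CSC, Star parent or Stylo CSC (1.09 to 1.57). CCL2 and CCL8 were the pair called lower, by -4.36 ± 0.11 and -3.58 ± 0.13, with CCL2 at 4.84 and 5.29 in Star CSC, against 101 and 107 in Stylo CSC.

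A relative of IFGGC1 with the synonym IRGC, LOC476445, was looked up after the values of the other GTPases had been seen. It read 0.134 and 0.122 in Star CSC, against 0.461 and 0.348 in Star parent, and was lower by -1.65 ± 0.27 (limma adjusted p = 0.00867). In Stylo CSC it read 1.67 and 1.64, against 8.11 and 13.7 in Stylo parent, lower by -2.67 ± 0.27. IFGGC1 and LOC606863 were thus above background in Star CSC alone, while LOC476445 was lowest there.

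OAS1 and OAS2 were the pair of members well above background on all 8 arrays, and their log2 signals had a Pearson correlation of 0.87 across them. This describes 4 group levels seen on 8 arrays that share slides and scaling. Among 967 other named and tested genes, those with the profile most like the mean of the 7 members were KRT15 (r = 0.991), CLIC2 (0.964), HLA-DRB1 (0.951), MMP11 (0.943) and CASP12 (0.936). The mean profile includes signals below background, in Stylo parent for 5 of the 7 members and outside Star CSC for OASL and IFGGC1, so these likenesses are descriptions only. KRT15, a keratin of basal epithelial cells, read 23.3 and 27.2 in Star CSC, 4.90 and 5.60 in Star parent, 4.72 and 5.08 in Stylo CSC, and 2.26 and 2.43 in Stylo parent. The class II histocompatibility gene that the table names HLA-DRB1 read 2.16 and 2.13 in Star CSC, 0.326 and 0.331 in Star parent, 0.184 and 0.206 in Stylo CSC, and 0.0308 and 0.0347 in Stylo parent, the last not well above background. CASP12, an inflammatory caspase, read 0.932 and 0.973 in Star CSC and 0.216 and 0.251 in Star parent.

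Leukocyte markers were examined because a sort could carry such cells. Of 18 listed markers 7 had a probe, and their summed relative signal was 1.07 to 1.13 in Star CSC, 0.160 to 0.206 in Star parent, 0.116 to 0.144 in Stylo CSC and 0.358 to 0.366 in Stylo parent. These sums include signals not well above background. On the Star CSC arrays 3 and 4 of the 7 markers were well above it, and 2 on each Star parent array. On the Stylo CSC arrays 0 and 1 were, and on the Stylo parent arrays 1 and 0, so the Stylo sums give no order among groups. CD86, a co-stimulatory molecule of antigen-presenting cells, made up most of the Star CSC sum at 0.956 and 0.992, against 0.0585 and 0.0657 in Star parent. TYROBP, an adaptor of myeloid and natural killer receptors, was well above background in Star CSC alone, at 0.0295 and 0.0283. For CD4, CD80 and the B-cell marker MS4A1 no array gave a signal well above background. The general leukocyte marker PTPRC had no named probe. CD79A, a B-cell marker, read 0.0344 and 0.0444 in Star CSC, against 0.0338 and 0.0559 in Star parent, a difference of -0.16 ± 0.34 (limma adjusted p = 0.749). The T-cell marker CD8A was well above background on 1 array, a Star CSC one, at 0.0296. So CD86, 1 of the 7 markers, moved with the members in Star CSC. TYROBP was detected there alone but was too dim for a bound against Star parent or Stylo CSC. The part of CD86 and TYROBP in the result was not tested.

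The label of mammary carcinoma was checked against 6 epithelial markers with a probe. KRT14 was well above background on all 8 arrays, 4 or 5 of the 6 were in Star CSC, 4 in Star parent, 3 in Stylo CSC and 2 in Stylo parent, and ESR1 was not on any. All 6 fibroblast and mesenchymal markers with a probe were well above background in every group, VIM among them at 178 and 192 in Star CSC, 242 and 249 in Star parent, 679 and 748 in Stylo CSC, and 578 and 659 in Stylo parent.

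How far the members' differences depend on scaling is seen in the 2 sorting comparisons. In the Star sort OAS1 ran from 1.91 to 3.43 over all settings and arrays left out, OAS2 from 1.23 to 3.08 and MX1 from 3.01 to 4.44, and none of the 3 lost its call. OAS3 ran from 0.42 to 2.87 and CXCL10 from 0.83 to 3.17.

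**Figure D5:**
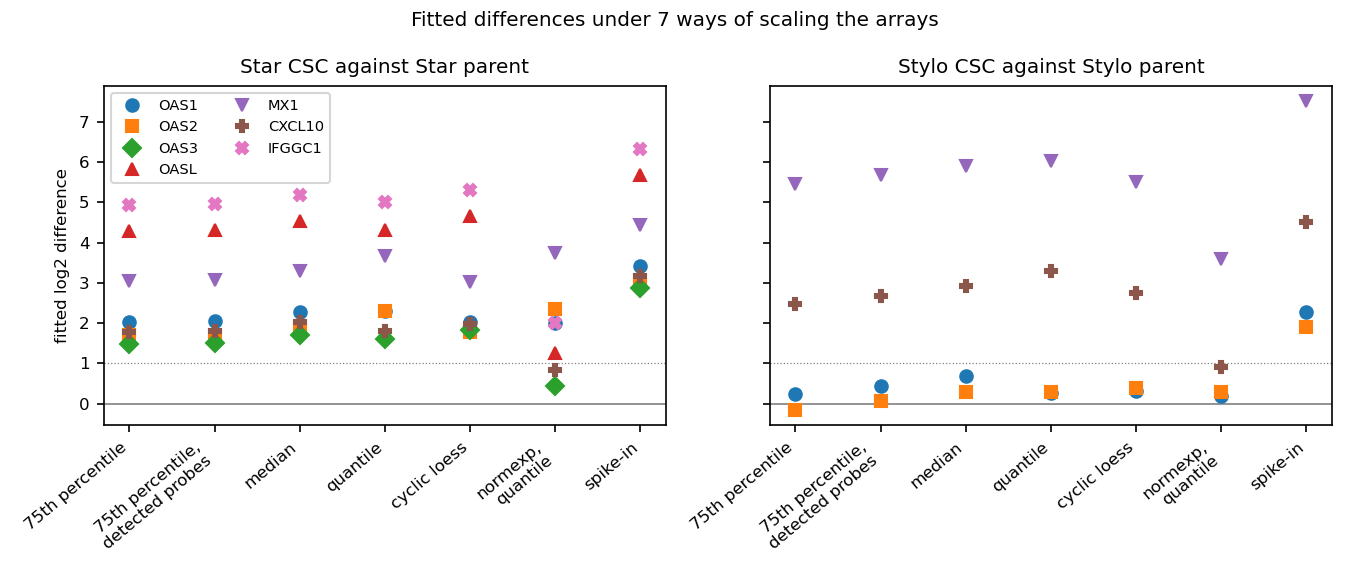
Fitted log2 differences of the members under 7 ways of scaling or correcting the arrays, for the Star sort (left) and the Stylo sort (right, the 4 members with a measured difference or a bound); the dotted line marks 2-fold. In the Star sort OAS3 and CXCL10 drop under the line with normexp alone. In the Stylo sort CXCL10 drops under it with normexp alone (0.91), and OAS1 and OAS2 pass it with spike-in scaling alone.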

How the data were processed

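Total RNA from 8 samples was labelled with Cy3 and hybridised to canine Agilent arrays, per the labels' protocols, and the submitters' processing notes name Agilent Feature Extraction 11.5.1.1. The deposited scanner files hold each spot's processed signal as an intensity with its flags, per the file headers. The authors' deposited series matrix holds log2 values. Taken relative to Stylo CSC replicate 1, they differed from log2 processed signal less the array's 75th percentile by an SD of at most 5.59e-07 over 18325 probes, so their scale and direction are the same and each probe was centred on a value that cancels here. The matrix columns had medians from -0.27 to 1.01. The genome build and annotation behind the probes are not given in the sources used here, and accessions, without their version, were paired with symbols through RefSeq's table for assembly UU_Cfam_GSD_1.0, which served for names and gene order only.

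Control spots and spots marked as outliers were left out, no gene spot was saturated, and log2 signals of 1 probe's spots were averaged and reduced by the array's 75th percentile. A probe was tested if well above background (more than 0.5 of its spots) on both arrays of at least 1 group, which left 26821 probes. The 4 group means were fitted to all 8 arrays with limma 3.58.1 in R 4.3.3 (lmFit and eBayes, two-sided), and calls needed an adjusted p under 0.05 (Benjamini-Hochberg over all tested probes) and a 2-fold change. Of a gene's tested probes, the one brightest on average stands for it. Named were the 7 members with every probe, each pathway gene called in a comparison described, and the 5 genes with the most similar profile. The members, lists and tests were chosen with earlier results of these data known. One item of the pathway lists is not reported here. The fit was tested on simulated arrays. Groups and replicate numbers came from the sample titles. The deviations of same-numbered arrays correlated at -0.07 to 0.07, so the numbers pair the groups by label only. Precision is limited by 2 arrays per group and by signal over background. Alternatives covered scaling, background correction, filters, thresholds, the variance model, the arrays in the fit, the replicate block, each array left out in turn, and the deposited matrix. Normexp used the median signal with an offset of 50, as mean signals were not among the columns, and quantile normalization followed.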

Additional observations from a re-analysis of the deposited data

Results flagged for a closer look

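For 11 genes measured in all 4 groups the effect of sorting differed between CMT-Star and CMT-Stylo, by the test of that difference in limma (Benjamini-Hochberg adjusted p under 0.05 and at least 2-fold). Values are the log2 effect in Star less that in Stylo. Among the members, OAS1 differed by 1.80 ± 0.27 and OAS2 by 1.85 ± 0.17. Among the pathway genes the immunoproteasome subunits PSMB8 and PSMB9 differed by 1.69 ± 0.56 and 1.44 ± 0.15, the death ligand TNFSF10 by 1.29 ± 0.14 and the signalling inhibitor SOCS3 by 2.58 ± 0.37. The kinase JAK1 differed by -1.71 ± 0.22, the peptide transporters TAP1 and TAP2 by -1.57 ± 0.13 and -1.45 ± 0.21, and the chemokines CCL2 and CCL8 by -3.98 ± 0.16 and -3.32 ± 0.18. Of all tested probes, 52.1% were called in this test in either direction, and all 11 values use the 2 dimmer Stylo parent arrays. With spike-in scaling OAS1 (1.14, limma adjusted p = 0.117), OAS2 (1.19, 0.0787), PSMB8 (1.04, 0.208), PSMB9 (0.79, 0.242) and TNFSF10 (0.64, 0.354) were not called. With no scaling OAS1, OAS2 and PSMB8 were at 0.35, 0.40 and 0.25, not called, and PSMB9 and TNFSF10 turned to -0.0054 and -0.15. With normexp PSMB8 (0.78) and TAP2 (-0.89) came under the 2-fold limit. The PSMB8 call (limma adjusted p = 0.0371) was the least firm, with an adjusted p of 0.0740 under median scaling and 0.271 under quantile normalization. It also ended on leaving out Star CSC replicate 1 or either array of Star parent or Stylo CSC (1.45 to 1.70), and PSMB8 was well above background on 1 of the 2 Stylo parent arrays.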

How the results depend on the processing

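Counts of members called were 7 in Star CSC against Star parent, 6 in Star CSC against Stylo CSC, and 2 each in Stylo CSC against Stylo parent, in Star parent against Stylo parent and in the difference between the sorting effects. Of all tested probes, 3.21%, 12.6%, 21.9%, 24.6% and 28.2% were called higher, in the same order. The 7 and the 6 each include OASL and IFGGC1, which entered the test only through Star CSC. Leaving out each array in turn left these counts at 7 to 7, 6 to 6 and 2 to 2. Equal replicate numbers are the only pairing there is, and with the replicate block the counts were again 7, 6, 2, 2 and 2, with no call changed. In Stylo CSC against Stylo parent the count was 4 with spike-in scaling, 4 with no scaling and 1 with normexp (MX1 alone). Of all tested probes, 67.6%, 64.5% and 12.8% were then called higher. In the difference between sorting effects it was 0 with spike-in scaling and 0 with no scaling, beside 12.4% and 6.36% of all tested probes called higher. In Star parent against Stylo parent it was 1 with the second probe of each gene. No scaling and the second probe were alternatives chosen after seeing the data. In Star CSC against Star parent 117 values of the 5 measured members kept their direction and side of the threshold and 3 fell short of it (OAS3 and CXCL10 with normexp, and CXCL10 with its second probe), and 5 members were left to count where a probe had to be detected in 2 groups, since OASL and IFGGC1 then fall out. OAS2 changed sign in both comparisons with Stylo parent: for Stylo CSC it was 0.28 with median scaling, 0.052 with detected probes, 0.28 with quantile normalization, 0.39 with cyclic loess, 0.29 with normexp, 1.89 with spike-in scaling and 1.80 with no scaling. For Star parent it was 0.26, 0.18, 0.55, 0.71, 0.50, 1.04 and 2.02 in the same order. OAS1 in Stylo CSC against Stylo parent was -0.027 with its second probe, and -0.0094 to 0.49 when 1 array was left out, the lowest without Stylo parent replicate 2. The MX1 difference between sorting effects was 0.15 with normexp and 0.94 with its second probe. In Star CSC against Star parent, spike-in scaling gave IFNA7 0.17 and CCL2 0.37. With no scaling, the difference between sorting effects was -0.0054 for PSMB9 and -0.15 for TNFSF10. The cause of these changes was not tested. Signal over background limits OAS3, CXCL10 and MX1 in Stylo parent, and OASL and IFGGC1 outside Star CSC.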
